A study of Homo sapiens with 6 samples.

Results

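JUN, JUNB, FOS, EGR1, MYC, IER2, IER5 and BTG1 are 8 immediate-early and growth-response genes whose transcripts were followed on 2-colour arrays of stimulated T cells. They were selected by the gene symbol that the platform annotation gives to a probe, and all 8 were present, with 29 probes among 15246 and as 8 of 4604 named genes. Jurkat is a human T-cell leukaemia line grown in culture. On each of 6 arrays, Cy5-labelled RNA from cells transfected with p65 siRNA or RPS3 siRNA was hybridised with Cy3-labelled RNA from cells given nonspecific siRNA, and both cultures had been stimulated for the same time with anti-CD3/CD28 at a dose of 1 ug. p65 is the NF-kB subunit encoded by RELA, and RPS3 is a protein of the small ribosomal subunit that the study examined as a partner of p65. Each siRNA had 3 arrays, from 1, 3 and 6 h of stimulation, so that the times of a siRNA stand as its replicates (n = 3) and a single time has no replicate check. All cultures, the controls included, had received a transfected siRNA and the stimulus. Unstimulated cells were not analysed here, so the values say nothing of induction by the stimulus itself.

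Immediate-early genes are transcribed within minutes of a signal without new protein synthesis, and several of their products then switch on later genes. In T cells, signals from the T-cell receptor and CD28 reach them through MAP kinases, calcium and NF-kB. FOS pairs with JUN or JUNB to form AP-1, a transcription factor needed for cytokine genes such as IL2. EGR1 is a zinc-finger factor, MYC drives cell growth and ribosome production with its partner MAX, IER2 and IER5 encode nuclear proteins of the early response, and BTG1 is an antiproliferative protein that is high in resting lymphocytes and recruits the CCR4-NOT deadenylase.

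Control sequences known from the serum and cAMP responses of such genes are the CArG box, which serum response factor binds, and the CRE, which CREB binds. RefSeq promoter windows (GRCh38.p14, 250 bases before to 50 after the gene start) were found for 7 of the 8 genes, and a window for MYC was not used here. The windows were searched on both strands for the NF-kB site, the CArG box, the AP-1 site TGACTCA, the CRE core TGACGT and the E-box CACGTG. Of 27305 windows of the same length, 10.8% held the NF-kB motif, 1.29% the CArG box, 4.92% the AP-1 site, 8.32% the CRE core and 7.43% the E-box. The 3 windows with a match, those of EGR1, FOS and BTG1, are shown for their matches and not for the values of these genes. Capitals mark the matches, on either strand, which are descriptions of letters and not bound sites.
EGR1 (chr5:138465229-138465528, plus strand): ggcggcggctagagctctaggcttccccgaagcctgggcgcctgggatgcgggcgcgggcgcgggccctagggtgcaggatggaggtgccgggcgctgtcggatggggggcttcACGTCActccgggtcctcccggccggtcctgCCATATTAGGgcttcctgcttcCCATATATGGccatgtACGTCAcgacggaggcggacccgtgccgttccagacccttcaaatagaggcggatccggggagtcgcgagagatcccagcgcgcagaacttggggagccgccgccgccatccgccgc
FOS (chr14:75278578-75278877, plus strand): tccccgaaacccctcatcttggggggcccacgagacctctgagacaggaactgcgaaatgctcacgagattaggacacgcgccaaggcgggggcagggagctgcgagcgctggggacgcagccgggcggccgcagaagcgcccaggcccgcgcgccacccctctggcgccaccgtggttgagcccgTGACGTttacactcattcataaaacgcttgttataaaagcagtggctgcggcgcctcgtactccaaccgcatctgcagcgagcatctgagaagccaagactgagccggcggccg
BTG1 (chr12:92145797-92146096, minus strand): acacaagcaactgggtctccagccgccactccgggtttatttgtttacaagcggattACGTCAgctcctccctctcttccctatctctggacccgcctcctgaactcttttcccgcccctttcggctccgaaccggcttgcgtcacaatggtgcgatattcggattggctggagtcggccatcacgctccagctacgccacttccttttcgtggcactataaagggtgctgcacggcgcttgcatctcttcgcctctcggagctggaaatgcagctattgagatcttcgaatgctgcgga
The EGR1 window held 2 CArG boxes, from positions -105 and -83 relative to the gene start, and 2 CRE cores, from -136 and -67. The FOS window held 1 CRE core, from position -64, and the BTG1 window 1, from position -193. The windows of JUN, JUNB, IER2 and IER5 held 0 matches to any of the 5 motifs.

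All values below are log ratios read as log2, centred on the median of each array, with siRNA over control as the likely direction; the deposited values state neither the base nor the direction. The direction was taken from the dyes in the labels and from the RPS3 probes, which were low on the RPS3 siRNA arrays. A negative value therefore means less transcript with the siRNA than with the control, and an error is the SD over the 3 arrays of a siRNA. The number of arrays limits the precision, and ratios give no absolute level, so that fewer cells with a transcript and less transcript per cell cannot be told apart. The arrays carried values for 12946 to 14423 probes. The RPS3 transcript read -2.50, -2.53 and -1.44 at 1, 3 and 6 h on the RPS3 siRNA arrays (mean -2.16 ± 0.62, limma adjusted p = 0.0993). The arrays of p65 siRNA gave 0.11, 0.0060 and 1.11 for it (mean 0.41 ± 0.61), so that the 6 h array stood above the other two. RELA averaged -0.49 ± 0.09 with p65 siRNA and -0.54 ± 0.15 with RPS3 siRNA, so its transcript did not separate the siRNAs. Means were tested with limma over 7267 features with a value on every array, and a Benjamini-Hochberg adjusted p under 0.05 counted as passing. T lineage markers could be read only as ratios, and 12 of 15 were tested. With RPS3 siRNA 11 of the 12 lay above 0, against 52.9% of all features. Their median was 0.17, against 0.01 over all features. With p65 siRNA 6 of the 12 lay above 0, against 54.7% of all features, with medians of -0.0079 and 0.02. Of 18 markers of other lineages 10 were tested, with medians of 0.14 with p65 siRNA (10 of 10 above 0, against 54.7% of all features) and 0.0049 with RPS3 siRNA (5 of 10); their part in the results was not tested.

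None of the 8 genes passed with either siRNA. Limma called 0 of 7267 features (0%) for p65 siRNA, for RPS3 siRNA and for their difference. The RPS3 transcript itself, at a mean of -2.16 with RPS3 siRNA, did not pass (limma adjusted p = 0.0993). Not passing therefore does not show that a gene was unchanged. In a fit of single probes, 7 of 10721 (0.0653%) were called with RPS3 siRNA and 0 with p65 siRNA or for the difference, and 0 of the 23 member probes with a value on every array were among them. The count of 7 was 2 without either 6 h array and 0 without any 1 of the other 4. At an unadjusted p under 0.05, 1 member was among the features with p65 siRNA (IER5), where 360 features or 4.95% of all met that level. With RPS3 siRNA 3 members met it (IER5 and BTG1 lower, MYC higher), where 636 features or 8.75% did. For the difference between the siRNAs 0 members met it, and 185 features or 2.55% did. The median of the members was -0.04 with p65 siRNA and -0.15 with RPS3 siRNA, with 6 of 8 below 0 in each, against 45.2% and 47.1% of all features. All 3 arrays lay below 0 for FOS, IER5 and BTG1 with p65 siRNA (9.66% of features did) and for IER2, IER5 and BTG1 with RPS3 siRNA (15.5%). All 3 lay above 0 for 0 members with p65 siRNA (13.2%) and for MYC with RPS3 siRNA (16.2%). IER5 and BTG1 were below 0 on all 6 arrays, as were 231 features (3.18%). Means above 0 were those of MYC and IER2 with p65 siRNA and of MYC and EGR1 with RPS3 siRNA, against 54.7% and 52.9% of all features.

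**Figure D1:**
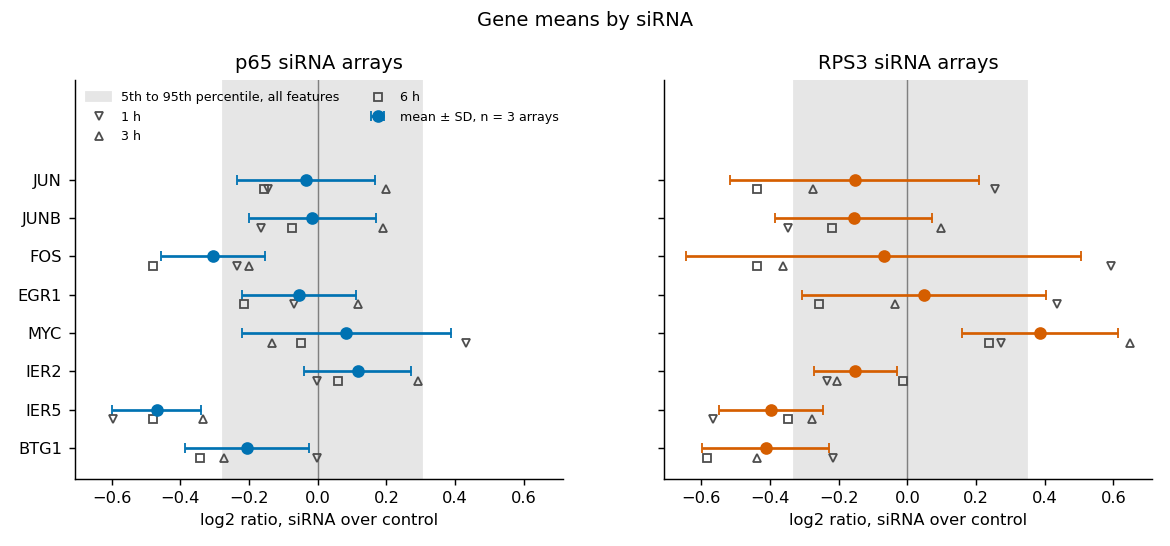
Mean log2 ratio (siRNA over control, x axis) of each gene on the p65 siRNA (left) and RPS3 siRNA (right) arrays. Filled points and bars give the mean ± SD over 3 arrays, open symbols the single arrays, and the grey band the 5th to 95th percentile of the means of all 7267 features; IER5 lay left of the band with both siRNAs, while FOS lay left of it with p65 siRNA, BTG1 left and MYC right of it with RPS3 siRNA.

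IER5, a nuclear protein linked to heat shock factor and protein phosphatase regulation, was the member with the steadiest value. Its single probe read -0.595, -0.33 and -0.48 at 1, 3 and 6 h on the p65 siRNA arrays. On the RPS3 siRNA arrays it read -0.57, -0.28 and -0.35. All 6 arrays were below 0, and the values of the siRNAs overlapped. The mean was -0.47 ± 0.13 with p65 siRNA, which is 1.38-fold lower than control (95% confidence interval -0.73 to -0.21, limma adjusted p = 0.935). With RPS3 siRNA it was -0.40 ± 0.15, or 1.32-fold lower (interval -0.66 to -0.14, adjusted p = 0.392). By unadjusted p the gene ranked 16 of 7267 features with p65 siRNA and 145 with RPS3 siRNA. IER5 was 1 of 19 features (0.261% of all) that lay at least 0.25 below 0 on every array, a rule set after its values were seen. The mean over all 6 arrays, a contrast also added after the values were seen, was -0.43 (interval -0.62 to -0.25, limma adjusted p = 0.179). A value at least 0.5 below 0 at 1 h was shared with 3.05% of features with p65 siRNA and 5.33% with RPS3 siRNA. With both siRNAs the 1 h array was the lowest and the 3 h array the nearest to 0. A single probe gives no check within an array. With Cy5 on the siRNA side of every array, a bias of the dye cannot be told apart from a shift shared by both siRNAs.

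BTG1 was measured by 6 probes, all with values on every array, more than any other member. The gene mean was -0.0018, -0.27 and -0.34 at 1, 3 and 6 h with p65 siRNA. The RPS3 siRNA arrays gave -0.22, -0.44 and -0.58. Thus the value was lower at each later time with both siRNAs, a course shown by 450 features (6.19%), and it was lower with RPS3 than with p65 siRNA at each time. At 6 h with RPS3 siRNA it was among the 6.48% of features at least 0.5 below 0. Probe by probe, 18 of 18 values were below 0 on the RPS3 siRNA arrays and 14 of 18 on the p65 siRNA arrays, where the 1 h array had 3 probes on either side of 0. The SD among the probes of an array ran from 0.09 to 0.22. The mean of the RPS3 siRNA arrays was -0.41 ± 0.18, or 1.33-fold lower than control (interval -0.69 to -0.13, limma adjusted p = 0.408), and that of the p65 siRNA arrays was -0.21 ± 0.18 (interval -0.49 to 0.08, adjusted p = 0.935).

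Single BTG1 probes gave the same order of the siRNA means, but not always of the single arrays. At 1 h probe 24763_1 read -0.11 with RPS3 siRNA and -0.14 with p65 siRNA. Probe 28858_1 went from 0.03 at 1 h to 0.17 at 3 h with p65 siRNA. The lowest mean belonged to probe 34101_1, at -0.59 with RPS3 siRNA (limma adjusted p over all probes 0.356) and -0.31 with p65 siRNA. The mean nearest to 0 belonged to probe 28858_1, at -0.22 and 0.0010. All 6 probes averaged lower with RPS3 than with p65 siRNA, with differences from -0.27 to -0.12, but they read the same RNA and are not replicates. The slope of BTG1 over time, fitted to both siRNAs together, was -0.07 per hour (limma adjusted p = 0.243). Among all features 1700 (23.4%) had an unadjusted p under 0.05 for this slope, FOS as the only member among them, and 0 passed (0%). The count of 1700 was 702 without the p65 siRNA array at 6 h and 365 without the RPS3 siRNA array at 6 h. Without the p65 siRNA array at 1 h or 3 h it was 2206 or 2028. Without the RPS3 siRNA array at 1 h or 3 h it was 1431 or 1426.

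IER2 encodes a nuclear protein induced early by growth factors. Its gene mean was -0.0023, 0.29 and 0.06 at 1, 3 and 6 h with p65 siRNA. The RPS3 siRNA values were -0.24, -0.20 and -0.01. The RPS3 siRNA arrays all lay below the p65 siRNA arrays, although the nearest values, -0.0023 and -0.01, almost met; 350 features (4.82%) showed this separation. The means were 0.12 ± 0.16 with p65 siRNA and -0.15 ± 0.12 with RPS3 siRNA, and the difference was -0.27 (interval -0.63 to 0.10, limma adjusted p = 0.9996). The 3 probes of IER2 disagreed at 3 h with p65 siRNA, where they ran from -0.28 to 0.81. Only 1 of them had a value on the RPS3 siRNA array at 1 h, so the probes behind the mean differ between arrays.

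**Figure D2:**
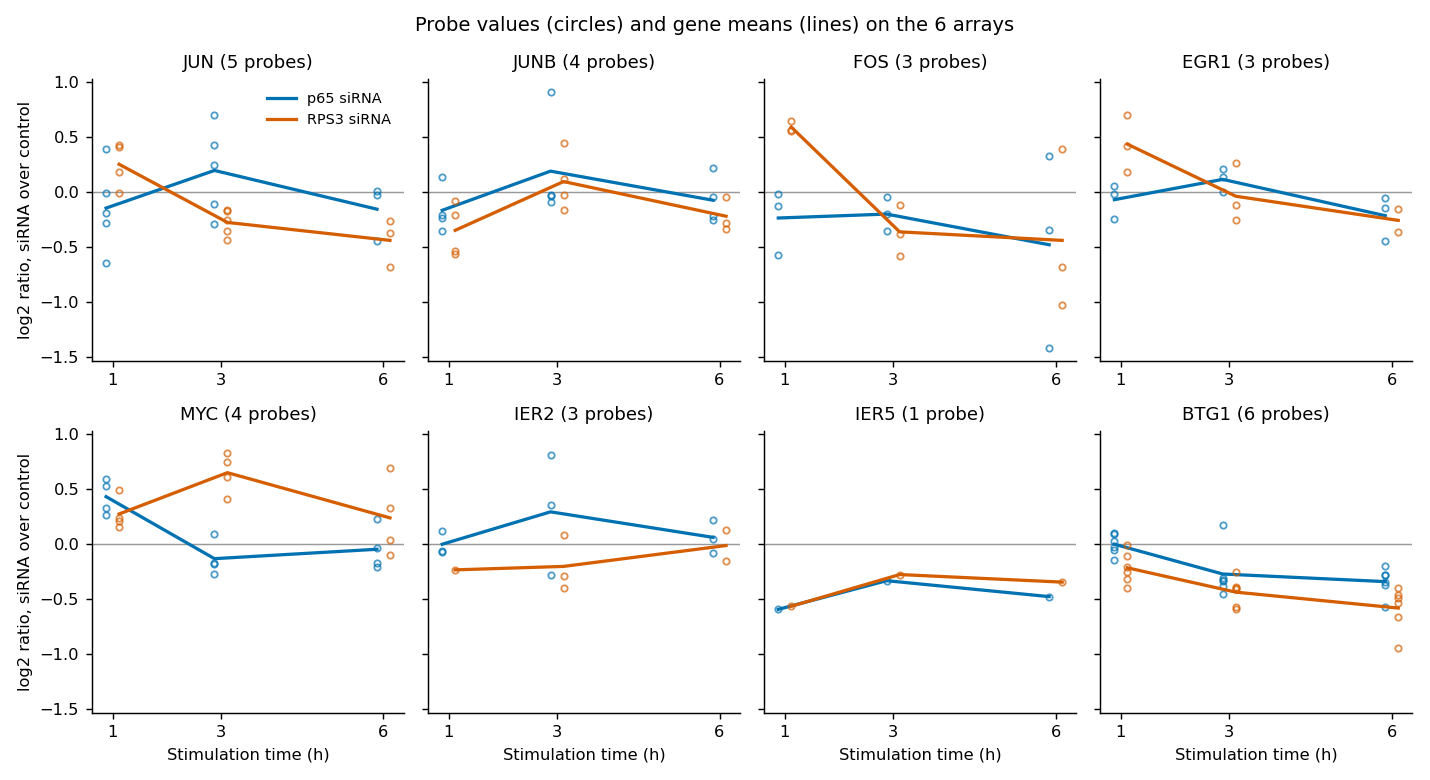
Log2 ratio of siRNA over control (y axis) against stimulation time in hours (x axis) for each gene, p65 siRNA in blue and RPS3 siRNA in orange. Circles are single probes and lines join the gene means; the 6 BTG1 probes lie close together and all below 0 with RPS3 siRNA, while the FOS probes meet at 1 h with RPS3 siRNA and spread at 6 h.

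Among the AP-1 genes, FOS had the widest course. Its gene mean with p65 siRNA was -0.24, -0.20 and -0.48 at 1, 3 and 6 h. With RPS3 siRNA it was 0.59, -0.36 and -0.44. The RPS3 siRNA array at 1 h was the only 1 above 0. All 3 FOS probes read between 0.56 and 0.65 on that array, with an SD among probes of 0.05, and 95.3% of all features were lower there; 6.73% were at least 0.5 above 0. Agreement among the probes did not last: at 6 h they ran from -1.42 to 0.33 with p65 siRNA and from -1.03 to 0.39 with RPS3 siRNA. The SD of 0.88 on the former exceeded that of 98.9% of genes with at least 3 probes. The probe that read 0.33 and 0.39 was 17279_1, and the lowest was 26323_1 on both arrays. The means were -0.30 ± 0.15 with p65 siRNA (interval -0.76 to 0.15, limma adjusted p = 0.936) and -0.07 ± 0.57 with RPS3 siRNA (adjusted p = 0.953). Without the 1 h array the RPS3 siRNA mean of FOS was -0.40, so its value rests on that array. Both 6 h arrays lay below the other 4 for FOS and for EGR1, a separation seen in 1388 features (19.1%), and the slope of FOS was -0.12 per hour (limma adjusted p = 0.212). Without the RPS3 siRNA array at 1 h that slope was -0.05 (adjusted p = 0.565), and over the single arrays left out it ran from -0.17 to -0.05. Its unadjusted p was above 0.05 without that array, either 6 h array or the p65 siRNA array at 3 h.

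EGR1 had its highest value on the same array. Its gene mean with p65 siRNA was -0.07, 0.12 and -0.21 at 1, 3 and 6 h. In cells with RPS3 siRNA it was 0.44, -0.04 and -0.26. At 1 h with RPS3 siRNA its 3 probes lay between 0.18 and 0.71, and 91.6% of features were lower. The means, -0.06 ± 0.17 with p65 siRNA (limma adjusted p = 0.984) and 0.05 ± 0.35 with RPS3 siRNA (adjusted p = 0.954), were smaller than the spread between arrays. Without the 1 h array the RPS3 siRNA mean was -0.15.

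JUN, the main partner of FOS, was measured by 5 probes, of which 3 had values on all arrays. Its gene mean with p65 siRNA was -0.145, 0.20 and -0.155 at 1, 3 and 6 h. With RPS3 siRNA it was 0.25, -0.28 and -0.44. The RPS3 siRNA array at 1 h was again the highest, as it was for FOS and EGR1; 1091 features (15%) were highest on it. Every JUN probe with a value was below 0 at 3 h (5 of 5) and 6 h (3 of 3) with RPS3 siRNA. With p65 siRNA the JUN probes disagreed, from -0.645 to 0.397 at 1 h and from -0.286 to 0.705 at 3 h. Their SD of 0.38 at 1 h exceeded that of 90.5% of genes with at least 3 probes. The means were -0.03 ± 0.20 with p65 siRNA (limma adjusted p = 0.994) and -0.15 ± 0.36 with RPS3 siRNA (adjusted p = 0.816). The second ran from -0.36 without the 1 h array to -0.01 without the 6 h array.

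JUNB, which also pairs with FOS and can oppose JUN, did not share that course. Its gene mean with p65 siRNA was -0.17, 0.19 and -0.07 at 1, 3 and 6 h. With RPS3 siRNA it was -0.35, 0.10 and -0.22. Here the RPS3 siRNA array at 1 h was the lowest of the 6, as it was for IER2 and for 1233 features in all (17%), and the 3 h array was the highest with each siRNA. The high value at 3 h with p65 siRNA came from 1 probe, 26451_1, at 0.91, while the other 3 probes lay between -0.09 and -0.03. At 3 h with RPS3 siRNA the 4 probes ran from -0.16 to 0.45, with 2 below and 2 above 0. The means were -0.02 ± 0.19 with p65 siRNA (limma adjusted p = 0.997) and -0.16 ± 0.23 with RPS3 siRNA (adjusted p = 0.759).

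MYC was the member highest above control. The mean of its 4 probes was 0.43, -0.13 and -0.05 at 1, 3 and 6 h with p65 siRNA. The RPS3 siRNA arrays read 0.27, 0.65 and 0.24. Each RPS3 siRNA array was above 0, as were 11 of 12 probe values there, against 6 of 12 with p65 siRNA. Its array order ran from RPS3 siRNA at 3 h, where all 4 probes lay between 0.41 and 0.83, 99.8% of features were lower and 0.894% of features were at least 0.5 above 0, through p65 siRNA at 1 h, to p65 siRNA at 3 h. The RPS3 siRNA mean was 0.39 ± 0.23, or 1.31-fold higher than control (interval 0.05 to 0.72, limma adjusted p = 0.513). The p65 siRNA mean was 0.08 ± 0.30 (interval -0.25 to 0.42, adjusted p = 0.979). The arrays highest for MYC, RPS3 siRNA at 3 h and p65 siRNA at 1 h, are also those whose experiment ID numbers form the first of the 2 consecutive series in the labels. They averaged 0.54 and the 4 arrays of the other series 0.08 without overlap, as in 866 features (11.9%). Within the series MYC was higher with RPS3 than with p65 siRNA, by 0.22 in the first (1 array each) and 0.35 in the other (2 arrays each), where the times of the siRNAs also differ. The arrays of the first series also had the narrowest spread over probes (SD 0.255 and 0.287, against 0.372 to 0.513). With the series as a covariate the limma adjusted p of MYC with RPS3 siRNA was 0.344.

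**Figure D3:**
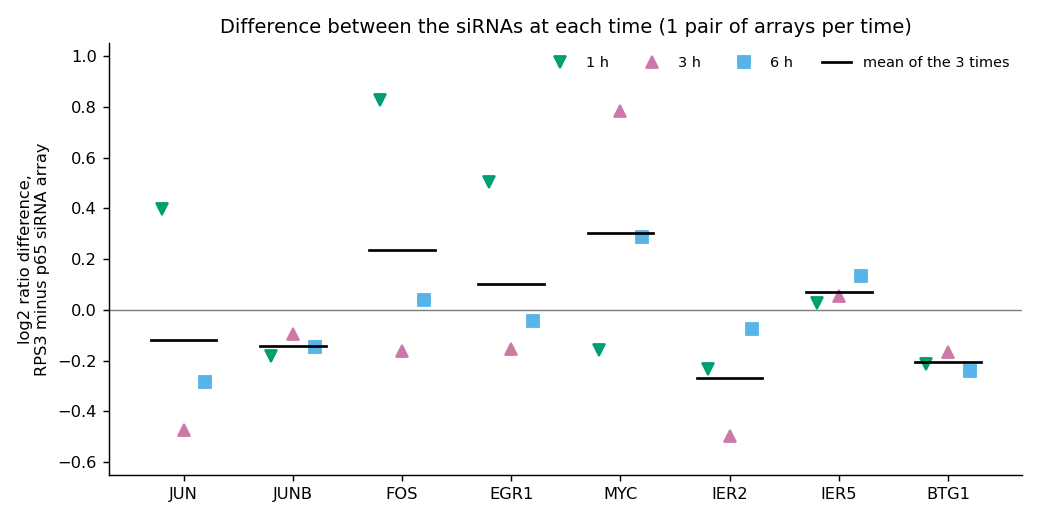
Difference in log2 ratio between the RPS3 siRNA and the p65 siRNA array (y axis) at 1, 3 and 6 h for each gene, with the mean of the 3 times as a black line; only the 6 h pair lies within 1 experiment ID series. The 3 points of BTG1 lie between -0.24 and -0.165, whereas those of FOS run from -0.16 to 0.83 and those of MYC from -0.16 to 0.78.

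The difference between the siRNAs asked whether these genes had the same ratio with RPS3 siRNA as with p65 siRNA. RELA averaged -0.49 with p65 siRNA and -0.54 with RPS3 siRNA. The difference therefore compares siRNAs and is not shown to compare RPS3 loss with p65 loss. The pairs of arrays at 1 h and at 3 h each cross the experiment ID series, in opposite directions, and only the 6 h pair lies within 1 series; series and siRNA cannot be told apart in the 1 h and 3 h differences. At 1 h FOS was 0.83, EGR1 0.51 and JUN 0.40 higher with RPS3 than with p65 siRNA. At 6 h, within 1 series, the differences were 0.04 for FOS, -0.04 for EGR1 and -0.28 for JUN. A difference of at least 0.5 at 1 h was seen in 700 features (9.63%). At 3 h the order changed, with MYC 0.78 higher (8.38% of features were at least 0.5 higher), IER2 0.50 lower and JUN 0.47 lower with RPS3 siRNA. BTG1 was lower with RPS3 siRNA at every time, with differences of -0.215, -0.165 and -0.24, and JUNB with -0.18, -0.09 and -0.15. Altogether JUNB, IER2 and BTG1 were lower at all 3 times, as were 1155 features (15.9%). IER5 was higher at all 3 times, by 0.03 to 0.13, as were 934 features (12.9%).

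Over the 3 times the BTG1 difference was -0.21 ± 0.04 (SD over times), with a limma interval of -0.61 to 0.19 (adjusted p = 0.9996). The SD of a difference pairs the arrays by time, and the limma intervals here do not. With the time point as a replicate block the limma adjusted p of the BTG1 difference was 0.784. Within the series the BTG1 difference was -0.44 in the first and -0.09 in the other, with times that differ between the siRNAs. Likewise IER2 (-0.20 and -0.30), JUN (-0.13 and -0.11) and EGR1 (0.03 and 0.14) had 1 sign in both series. The sign differed between the series for JUNB (0.26 and -0.34), IER5 (0.32 and -0.05) and FOS (-0.13 and 0.42). The MYC difference was 0.30 ± 0.47 (interval -0.17 to 0.78) and that of IER5 0.07 ± 0.05 (interval -0.30 to 0.44), each with a limma adjusted p of 0.9996. For JUN (-0.62 to 0.38), JUNB (-0.56 to 0.28), FOS (-0.41 to 0.88) and EGR1 (-0.38 to 0.59) the intervals also held 0. All 8 intervals hold 0 and are wide, and they do not show that the siRNAs acted alike on these genes. The siRNA means rest on controls of the same times, which can be shared RNA. A difference in slope between the siRNAs had an adjusted p of 0.9999 for each of the 8 genes.

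Relatives of these genes were counted in lists. Beside the counts below 0 in all these lists, 45.2% of all features had a mean below 0 with p65 siRNA and 47.1% with RPS3 siRNA. Of 17 other AP-1 family genes 10 were tested and 0 passed; their median was 0.06 with p65 siRNA (2 of 10 below 0) and 0.0052 with RPS3 siRNA (5 of 10). BATF3, a dimer partner of JUN, averaged 0.45 ± 0.11 with RPS3 siRNA (limma adjusted p = 0.369). It read 0.41, 0.37 and 0.58 at 1, 3 and 6 h, and 0.02, 0.11 and 0.41 with p65 siRNA. ATF3, a stress-induced repressor, averaged -0.12 ± 0.02 with RPS3 siRNA, and JUND 0.05 ± 0.04 with p65 siRNA. Of 15 other EGR, NR4A and KLF genes and NAB corepressors 9 were tested, with medians of -0.02 with p65 siRNA and -0.09 with RPS3 siRNA and 0 passing. The largest mean among those named was that of KLF9, at -0.40 ± 0.36 with RPS3 siRNA (limma adjusted p = 0.556), and the EGR corepressor NAB1 averaged -0.35 ± 0.41 with p65 siRNA. The orphan receptor gene NR4A2 averaged -0.12 ± 0.08 with RPS3 siRNA.

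Around MYC, 9 of 20 partner and turnover genes and 19 of 30 target genes were tested. The targets had medians of 0.10 with p65 siRNA (14 of 19 above 0) and 0.08 with RPS3 siRNA (13 of 19 above 0), against 54.7% and 52.9% of all features above 0, and 0 passed. ODC1, the rate-limiting enzyme of polyamine synthesis, averaged 0.44 ± 0.23 with RPS3 siRNA (limma adjusted p = 0.422) and 0.37 ± 0.23 with p65 siRNA. LDHA, lactate dehydrogenase A, averaged 0.30 ± 0.11 and NME1, a nucleoside diphosphate kinase, 0.22 ± 0.12 with p65 siRNA. With RPS3 siRNA the isoleucyl-tRNA synthetase IARS1 averaged 0.26 ± 0.16 and the nucleolar protein NOP56 0.53 ± 0.68. Of the partners, the helicase gene RUVBL2 averaged 0.36 ± 0.23 with p65 siRNA and 0.41 ± 0.32 with RPS3 siRNA. SKP2, a ubiquitin ligase subunit that acts on MYC, averaged -0.37 ± 0.15 with RPS3 siRNA (limma adjusted p = 0.481). MAX averaged -0.16 ± 0.12 and MYCN -0.20 ± 0.17 with p65 siRNA, and MXD4 0.06 ± 0.02 with RPS3 siRNA. The partner list had medians of 0.04 and 0.06, with 0 passing.

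Among other IER, BTG/TOB and early growth-response genes, 19 of 30 were tested and 0 passed. Their medians were -0.02 with p65 siRNA and -0.07 with RPS3 siRNA. Below 0 were 10 and 13 of the 19, against 45.2% and 47.1% of all features. SGK1, a kinase of the glucocorticoid and serum response, was the lowest of those named, at -0.62 ± 0.18 with p65 siRNA and -0.77 ± 0.19 with RPS3 siRNA (limma adjusted p = 0.270). The activation marker CD69 averaged -0.40 ± 0.25 with p65 siRNA (adjusted p = 0.935) but read 0.43, 0.10 and -0.39 at 1, 3 and 6 h with RPS3 siRNA. MCL1, a survival protein of the BCL2 family, averaged -0.33 ± 0.14 with RPS3 siRNA (adjusted p = 0.513). The RNA-binding protein gene ZFP36L2 averaged 0.22 ± 0.06 with p65 siRNA and VEGFA -0.17 ± 0.14 with RPS3 siRNA. Of 15 genes for BTG1 partners and the CCR4-NOT complex 7 were tested, with medians of 0.02 and 0.06 and 0 passing. The deadenylase CNOT7, which BTG1 binds, averaged 0.31 ± 0.23 with RPS3 siRNA (limma adjusted p = 0.516) and 0.15 ± 0.12 with p65 siRNA, and CNOT9 averaged -0.11 ± 0.10 with RPS3 siRNA. Upstream transcription factors had 17 of 27 tested, with medians of -0.07 (12 of 17 below 0) and 0.02 (7 of 17) and 0 passing. With p65 siRNA FOXO1 averaged -0.30 ± 0.19 (adjusted p = 0.935), MEF2D -0.21 ± 0.16 and the serum response factor partner ELK3 -0.16 ± 0.05. With RPS3 siRNA the coactivator gene CREBBP averaged 0.18 ± 0.11, ELK1 -0.15 ± 0.11 and SP1 0.14 ± 0.08.

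The genes most like a member were ranked by Pearson r of the log2 ratio over the 6 arrays, among 2459 other named genes with an SD of at least 0.2. IER2 (SD 0.19), IER5 (0.13) and BTG1 (0.1985) fell short of that SD and were not compared. For FOS they were MYCL (r = 0.997), IFIT2 (0.988) and FGF2 (0.980). For EGR1 they were SYT17 (0.993), ABL2 (0.992) and MYO9B (0.991), and for JUN they were CRIPT (0.988), CCL7 (0.987) and LYN (0.986). For MYC they were YY1 (0.989), GCFC2 (0.985) and CRY1 (0.979), and for JUNB SLC25A40 (0.940), PHTF1 (0.935) and ARHGAP35 (0.912). Correlations this high were common with 6 arrays, which may share control RNA: r was at least 0.9 for 78 genes with JUN, 72 with EGR1, 42 with MYC, 41 with FOS and 5 with JUNB. The values are descriptions of these arrays.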

How the data were processed

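Total RNA of Jurkat cells was compared on 6 two-channel arrays; the columns of the deposited table matched the samples by accession. The deposited values are log ratios per probe, here read as log2, because values reached 9.52, too high for a log10 ratio; a natural log could not be told apart and would make every size larger. Image analysis, background correction, normalization and the rule behind blank cells (5.40% to 15.1% of an array) are not stated by labels or headers. The direction, Cy5 (siRNA) over Cy3 (control), is likely and not stated.

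Each array was centred on its median. Of 15246 probes, 10169 had 1 platform symbol; 0 symbols changed on matching to current gene records by gene ID. Probes of a symbol were averaged per array, so that blank cells change which probes enter. Groups came from the channel 2 labels. Limma 3.58.1 in R 4.3.3 (lmFit, eBayes) fitted 1 mean per siRNA over 6 arrays and 7267 features (4604 symbols before filtering), with Benjamini-Hochberg adjustment over all of them; single probes were fitted over 10721. Slopes used time in hours with a mean per siRNA. The fit was also run on simulated data with known shifts and independent normal errors. That run held no time trend, shared control or series effect, so it could not test for them. The labels name no separate cultures behind the arrays. The p-values reflect variation among the ratios of these 6 arrays, which holds time, technical variation and the controls together. Variation between replicate cultures of 1 time was not measured. Alternatives were no centring, quantile normalization, complete probes only, the median of probes, time or experiment ID series in the fit, eBayes with trend, each siRNA alone, and fits without single arrays or the 6 h arrays. Members, lists and tests were chosen with earlier results of these data known. Named genes are the members and, per list and siRNA, up to 3 genes of lowest p with 1 sign on all 3 arrays.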

Additional observations from a re-analysis of the deposited data

Results flagged for a closer look

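IER2 probe 20170_1 is singled out because every p65 siRNA array lay above 0 and every RPS3 siRNA array below 0. The share of all probes with this pattern was not counted, so the pattern cannot be called unusual. It read 0.12, 0.35 and 0.05 at 1, 3 and 6 h with p65 siRNA and -0.24, -0.29 and -0.15 with RPS3 siRNA, a difference of -0.40 (limma adjusted p over all probes 0.9996). It is the only IER2 probe with values on all 6 arrays, and probe 20171_1, with values on 5, showed no such separation: it averaged -0.15 with p65 siRNA, below 0 on all 3 arrays, and -0.14 with RPS3 siRNA, where it read -0.40 at 3 h and 0.13 at 6 h. Probe 20183_1, with values on 4 arrays, did not show it either. It read -0.06 at 1 h with p65 siRNA, and its only RPS3 siRNA value was 0.08 at 3 h. The gene mean, which takes in 2 other probes where they have values, differed by -0.27.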

How the results depend on the processing

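No member passed under any alternative run, and 530 of 560 member values kept their sign. A siRNA mean cannot change with time or series in the fit, with eBayes trend, or in a fit of that siRNA alone. Nor can it change when an array of the other siRNA is left out. Signs were fixed in advance in those runs, so the count of 530 is no measure of stability. Over the alternatives the limma adjusted p ran from 0.408 to 0.9996 for IER5 with p65 siRNA, 0.174 to 0.795 for IER5, 0.167 to 0.801 for BTG1 and 0.273 to 0.795 for MYC with RPS3 siRNA. Counts of called features moved from 0. With RPS3 siRNA limma called 2 after quantile normalization, 3 with the time point as a replicate block, 3 without both 6 h arrays and 0 to 2 leaving out single arrays (2 without either 6 h array). For the difference it called 1 after quantile normalization, 2 with the replicate block and 1 without the 6 h arrays. For the slope it called 1 after quantile normalization and 0 to 607 leaving out single arrays (607 without p65 siRNA at 1 h, 273 without p65 siRNA at 3 h). For the mean of all arrays it called 8 and 1 after quantile normalization and without the 6 h arrays. None of these were members.

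The sign turned in 30 member values, among them the FOS difference, which was 0.24 with all arrays and -0.0956 without the RPS3 siRNA array at 1 h. With p65 siRNA, JUN was 0.011 with the median of probes, and JUN, JUNB and EGR1 were 0.0263, 0.013 and 0.024 without both 6 h arrays. With RPS3 siRNA, FOS was 0.12 without the 6 h arrays and EGR1 -0.00017 from probes with values on all arrays; from those probes the slopes of JUNB and IER2 were -0.0078 and -0.0017 per hour. Over all 6 arrays EGR1 was 0.0041 with the median of probes, and JUN and EGR1 were 0.0077 and 0.11 without the 6 h arrays. Leaving out 1 array at a time, the p65 siRNA mean ran from -0.15 to 0.0263 for JUN, -0.119 to 0.0589 for JUNB, -0.141 to 0.024 for EGR1 and -0.0907 to 0.191 for MYC. The RPS3 siRNA mean ran from -0.40 to 0.12 for FOS and -0.15 to 0.20 for EGR1. The difference ran from -0.323 to 0.0233 for JUN, -0.0956 to 0.42 for FOS and -0.0916 to 0.256 for EGR1, the slope of JUNB from -0.0202 to 0.0389, and the mean of all arrays from -0.101 to 0.0723 for EGR1 and -0.0611 to 0.0127 for IER2. The cause was not tested.

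Array deviations at the same time correlated at 0.010, 0.096 and 0.756 at 1, 3 and 6 h, so the 6 h arrays deviated together and those of 1 and 3 h did not. The 6 h pair is also the only pair within 1 experiment ID series, so time and series cannot be told apart here. The replicate block changed no member's call, but features with an unadjusted p under 0.05 went from 360 to 750 with p65 siRNA, 636 to 1152 with RPS3 siRNA and 185 to 451 for the difference. Signal over background was not used here, and 3 arrays a siRNA limit the precision.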
